A study of Mus musculus with 18 samples.

Results

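The 10 genes described here, Nr1d1, Nr1d2, Ciart, Dbp, Per1, Per2, Per3, Bhlhe41, Arntl and Clock, are parts of the mammalian circadian clock or direct outputs of it. They were taken by gene name from 2 tables of raw counts with 55487 genes each, and all 10 were found and passed the filter on low counts in both experiments. They were chosen by gene name with results of these data known: Nr1d1 and Ciart had been seen to be high in the reporter-negative cells described below, so the values of that contrast (reporter-negative cells against their control) are given as a description, with no test. The libraries come from alphaTC1, a mouse line of glucagon-producing pancreatic alpha cells, in a study of SMNDC1, a splicing factor whose loss was examined for its effect on hormone expression.

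In experiment 1, cells were transduced with an empty vector (EV, 3 libraries) or with an shRNA against Smndc1 (shSmndc1, 3 libraries) and taken 5 days later. In experiment 2, cells also received RIP-mCherry, a red fluorescent reporter under the rat insulin promoter. Its groups were EV_RIP (empty vector with the reporter, 4 libraries) and cells with the shRNA, sorted into a fraction without reporter signal (shSmndc1_RIP_neg, 4 libraries, called reporter-negative) and one with it (shSmndc1_RIP_pos, 4 libraries, called reporter-positive). The labels leave the day of experiment 2 and any sorting of EV_RIP cells unstated, name an empty vector and no non-targeting shRNA as the control, and give no hour of harvest for any library.

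In the clock, the proteins CLOCK and BMAL1 (the product of Arntl) bind E-box sequences as a pair and switch on the Per and Cry genes, whose proteins return to block the pair. A second loop runs through Nr1d1 and Nr1d2, which encode the nuclear receptors REV-ERB alpha and beta: CLOCK and BMAL1 activate them, and they repress Arntl through ROR elements. Ciart and Bhlhe41 (DEC2) encode further repressors of CLOCK and BMAL1, and Dbp encodes an activator of D-box genes such as the Per genes. In pancreatic alpha cells, REV-ERB alpha has been linked to glucagon secretion.

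Total counts were 37233208 to 66676008 per library in experiment 1 and 34045268 to 103048766 in experiment 2, apart from reporter-negative replicates 3 (8084574) and 4 (23744051). Smndc1 stood at 35.1 to 41.9 CPM (counts relative to the scaled library total) in EV and 9.52 to 10.5 CPM in shSmndc1, and at 37.6 to 54.9 CPM in EV_RIP and 15.97 to 25.2 CPM in reporter-positive cells. In the libraries labelled reporter-negative it had 23.9, 43.4, 36.3 and 44.6 CPM for replicates 1 to 4, so that 3 of the 4 lay near or within the range of EV_RIP. Those same 3 libraries held 18.6, 161 and 45.4 CPM of Rn7sk, a nuclear RNA that is not polyadenylated, against 4.53 CPM in reporter-negative replicate 1 and 2.44 to 14.2 CPM in the rest of experiment 2. All 9 alpha cell markers were detected in every group, with Gcg between 3774 and 19422 CPM. The markers of other cell types summed to at most 93.5 CPM (7 beta cell genes) and to at most 18.9 CPM in each of the 7 other lists. In EV and EV_RIP, 2 and 1 of the beta cell markers had no count, 1 of 2 delta cell markers had none, and the PP cell marker Ppy had none in EV and reporter-positive cells.

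Nr1d1 (ENSMUSG00000020889, chromosome 11, 98767932 to 98775333, minus strand, GRCm38) was higher than in the control in both experiments. Its level was 68.9, 75.8 and 54.7 CPM in the EV libraries and 111, 130.4 and 235 CPM with the shRNA. Every shSmndc1 library lay above every EV library, and replicate 3 was the highest of them. Nr1d1 rose by a log2 fold change of 1.25 (SE 0.27, 95% interval 0.65 to 1.86, edgeR adjusted p = 0.0197), or 2.38-fold, from 66.5 ± 10.7 to 159 ± 66.6 CPM (SD, n = 3). The shSmndc1 replicate 3 also had the highest Rn7sk (8.82 CPM, against 2.57 to 4.38 in the other 5 libraries) and the highest sum of 21 immediate-early genes (1268 CPM, against 630 to 923), and without it the log2 fold change was 0.86 (edgeR adjusted p = 0.0106). The call was lost when an EV library was left out, with edgeR adjusted p = 0.0507, 0.0617 and 0.102 without replicates 1, 2 and 3, at log2 fold changes of 1.27, 1.35 and 1.13. Over all genes, these fits called 12.6%, 2.95% and 0.967%, against 14.7% with all libraries. In bulk RNA, more cells of a kind and more RNA per cell cannot be told apart.

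In experiment 2, the EV_RIP libraries held 50.1, 116, 66.8 and 58.3 CPM of Nr1d1, against 206, 239, 284 and 275 CPM in reporter-positive cells. The groups did not overlap, and the reporter-positive libraries were close to each other, with a coefficient of variation of 14.3% against 40.6% in EV_RIP. Nr1d1 rose by 1.78 on the log2 scale in reporter-positive cells (SE 0.38, 95% interval 0.98 to 2.59, edgeR adjusted p = 0.00853), or 3.45-fold, and stayed past the threshold without any 1 of the 8 libraries (largest edgeR adjusted p = 0.0319). This comparison uses the same 4 EV_RIP libraries as the contrast that chose the genes, so its tests are not independent of that choice. In reporter-negative cells Nr1d1 had 120.3, 452, 424 and 658 CPM, so that replicate 1 was near the highest EV_RIP library and the others were far above it. The log2 fold change against EV_RIP was 2.50 (SE 0.39), or 5.67-fold, and 1.97 without replicates 3 and 4.

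Nr1d1 thus had group means, from low to high, of 66.5 CPM in EV, 72.8 in EV_RIP, 159 in shSmndc1, 251 in reporter-positive and 413 in reporter-negative cells, with the experiments scaled separately. Each neighbouring pair in that order overlapped in its libraries. On the opposite strand, 8.55% of the exonic bases of Nr1d1 are shared with Thra, the thyroid hormone receptor alpha gene. The strand setting of the counting is not given in the sources used here. Thra had 110 to 134 CPM in EV, 150 to 171 in shSmndc1, 108 to 138 in EV_RIP, 125 to 146 in reporter-negative and 127 to 157 in reporter-positive cells, and its part in the Nr1d1 values was not tested.

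**Figure D1:**
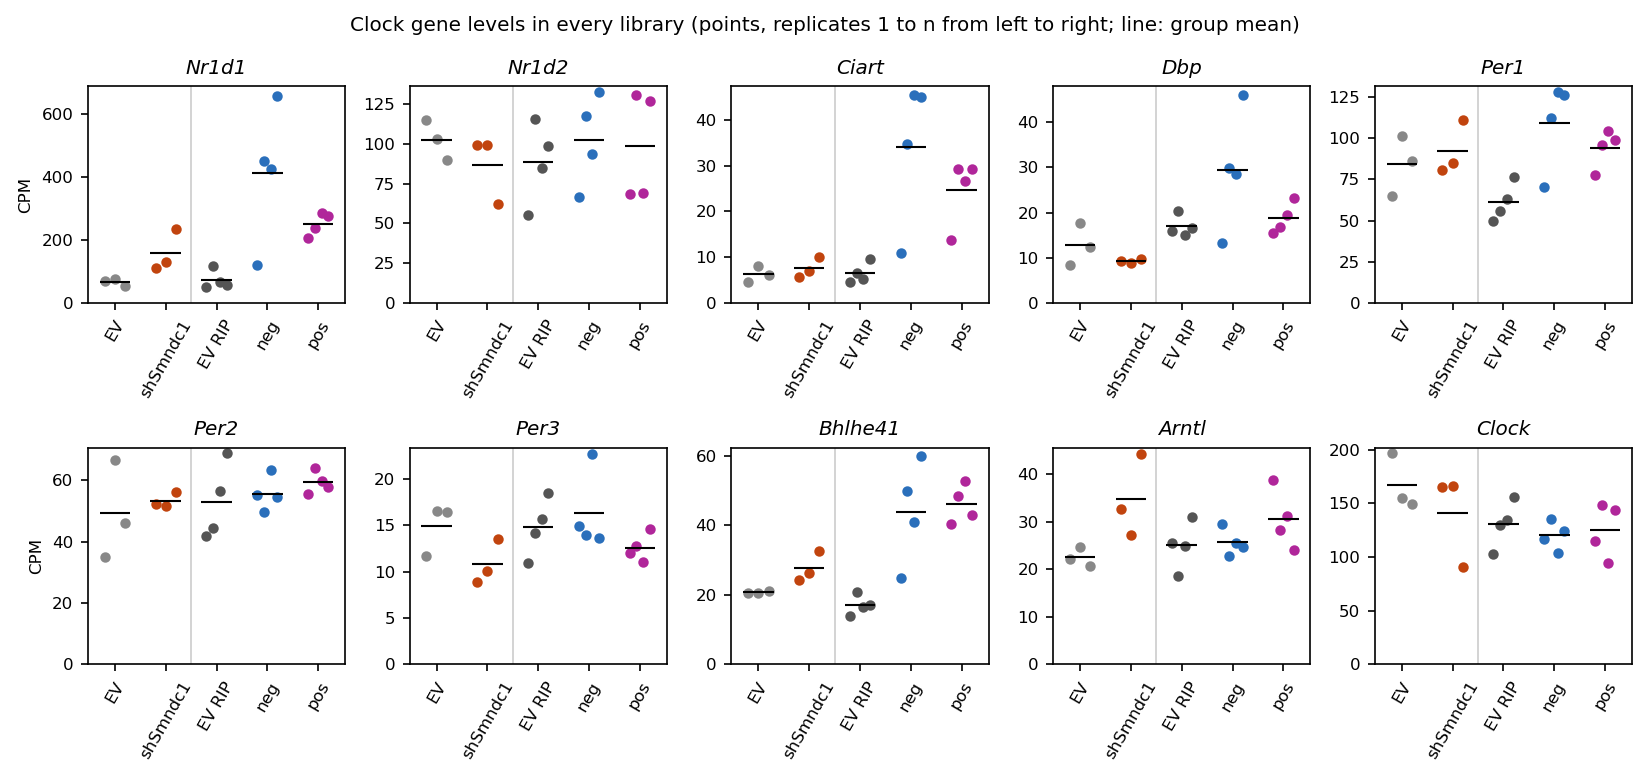
Level of each of the 10 clock genes in CPM (vertical axes, from 0) in each of the 18 libraries, by group; neg and pos are the reporter-negative and reporter-positive shRNA cells, bars are group means, and the grey line separates the experiments, which were scaled separately. Nr1d1, Ciart, Bhlhe41 and Per1 lie above EV RIP in all pos libraries, Nr1d2, Per2 and Clock overlap between all groups of an experiment, and neg replicate 1 lies below the other neg libraries for Nr1d1, Ciart, Dbp, Per1 and Bhlhe41.

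Nr1d2, the paralog of Nr1d1, did not follow it. Its level was 115, 103 and 89.8 CPM in the EV libraries and 98.9, 99.5 and 62.1 CPM with the shRNA. Experiment 2 gave 55.5, 115, 84.9 and 98.5 CPM for EV_RIP, 66.6, 117, 93.8 and 132 CPM in reporter-negative and 68.2, 130.5, 69.0 and 127 CPM in reporter-positive cells. All groups overlapped, with log2 fold changes of -0.24 (95% interval -0.67 to 0.19) in shSmndc1 and 0.15 (-0.42 to 0.73) in reporter-positive cells, which did not pass (edgeR adjusted p = 0.412 and 0.720). Expressed per length as FPKM, which allows genes to be compared, Nr1d1 and Nr1d2 were close in EV, at 24.3 and 21.9 FPKM. The ratio of Nr1d1 to Nr1d2 was 1.03 to 1.26 in EV and 1.01 to 1.72 in EV_RIP. It was 1.92, 2.25 and 6.47 in shSmndc1, 3.14 to 7.06 in reporter-positive cells and 3.10, 6.59, 7.74 and 8.51 in reporter-negative cells, so that each of these libraries was above every control library of its experiment.

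Ciart (CHRONO, ENSMUSG00000038550, chromosome 3, 95878503 to 95882251, minus strand), which binds BMAL1 and represses E-box genes, was among the lowest of the 10 in controls, at 3.17 FPKM in EV and 3.25 FPKM in EV_RIP. The EV libraries held 4.57, 8.07 and 6.11 CPM and the shSmndc1 libraries 5.67, 6.98 and 10.01 CPM, with overlap (log2 fold change 0.27, 95% interval -0.34 to 0.88, edgeR adjusted p = 0.527). In experiment 2 the EV_RIP libraries held 4.48, 6.49, 5.28 and 9.54 CPM, and Ciart reached 13.7, 29.1, 26.7 and 29.3 CPM in reporter-positive cells. Every reporter-positive library was above every EV_RIP library, with replicate 1 the lowest. The rise was 1.94 on the log2 scale (SE 0.38, edgeR adjusted p = 0.00594), or 3.83-fold, and held without any 1 library (largest edgeR adjusted p = 0.0244). In reporter-negative cells Ciart had 10.9, 34.8, 45.3 and 44.9 CPM, a log2 fold change of 2.39 (SE 0.39), with replicate 1 again the lowest. The effect in experiment 1 was smaller than in reporter-positive cells by 1.66 on the log2 scale (log2 difference -1.66, 95% interval -2.79 to -0.53, unadjusted p = 0.0061 in edgeR), but of 20036 genes none passed in that test of the difference (0%, with 861, or 4.3%, at an unadjusted p under 0.05 in edgeR and 3 called by DESeq2), and its edgeR adjusted p was 0.998.

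Bhlhe41 (ENSMUSG00000030256, chromosome 6, 145858243 to 145865558, minus strand) stood at 20.6, 20.4 and 21.2 CPM in the EV libraries and at 24.4, 26.2 and 32.7 CPM with the shRNA. The groups did not overlap, yet the test missed the threshold (log2 fold change 0.42, SE 0.14, edgeR adjusted p = 0.0740). The EV_RIP libraries held 13.9, 20.7, 16.5 and 17.1 CPM, against 40.4, 48.4, 52.7 and 43.0 CPM in reporter-positive cells and 24.8, 49.9, 41.0 and 60.04 CPM in reporter-negative cells. All 8 sorted libraries were above all 4 EV_RIP libraries. Bhlhe41 rose by 1.44 on the log2 scale in reporter-positive cells (SE 0.22, edgeR adjusted p = 0.00188), or 2.71-fold, and had a log2 fold change of 1.37 (SE 0.22) in reporter-negative cells. Its effects in the 2 experiments differed by a log2 value of -1.01 (95% interval -1.61 to -0.40, unadjusted p = 0.00257, edgeR adjusted p = 0.998). The predicted gene Gm43909 shares 19.0% of the exonic bases of Bhlhe41 on the opposite strand and was higher along with it, at 2.69 to 3.72 CPM in EV_RIP and 7.96 to 11.3 CPM in reporter-positive cells; reads of the pair cannot be told apart without strand.

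Per1 and Per2 encode partners of the cryptochromes in the main negative loop, and Per1 is also known to respond quickly to cAMP and glucocorticoid signals. For Per1 the EV libraries held 65.0, 102 and 86.1 CPM and the shSmndc1 libraries 80.5, 84.9 and 111 CPM, which overlapped (log2 fold change 0.13, edgeR adjusted p = 0.672). The EV_RIP libraries held 49.7, 55.9, 63.2 and 76.6 CPM, compared with 77.8, 95.9, 104 and 99.1 CPM in reporter-positive and 70.6, 112, 128 and 126 CPM in reporter-negative cells. Reporter-positive cells lay just above EV_RIP, a rise of 0.62 on the log2 scale (SE 0.18, edgeR adjusted p = 0.0306), while reporter-negative replicate 1 lay within EV_RIP (group log2 fold change 0.83, SE 0.18). The Per1 call was kept only without EV_RIP replicate 4 or reporter-positive replicate 1. Without any 1 of the other 6 libraries edgeR adjusted p was 0.0529 to 0.0866, in fits that called 6.46% to 19% of all genes. Per2 overlapped in experiment 1 too, at 35.0 to 66.8 CPM for EV and 51.7 to 56.2 CPM for the shRNA (log2 fold change 0.12, edgeR adjusted p = 0.737). For EV_RIP it stood at 42.0, 44.4, 56.6 and 69.0 CPM, and at 55.7, 64.0, 59.8 and 57.9 CPM in reporter-positive cells, all within the EV_RIP range (log2 fold change 0.16, 95% interval -0.14 to 0.47, edgeR adjusted p = 0.447).

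Per3, a paralog with a lesser role in the loop, had the lowest level of the 10 per length in every group, at 1.78 to 2.701 FPKM in the group means. The EV libraries held 11.7, 16.6 and 16.4 CPM and the shSmndc1 libraries 8.90, 10.1 and 13.6 CPM, which overlapped (log2 fold change -0.46, 95% interval -0.92 to 0.00, edgeR adjusted p = 0.157). In reporter-positive cells, at 11.98, 12.8, 11.1 and 14.6 CPM, the log2 fold change was -0.23 (edgeR adjusted p = 0.405). Dbp stood at 8.42, 17.8 and 12.3 CPM in the EV libraries and at 9.31, 8.88 and 9.66 CPM with the shRNA, all inside the EV range, with a log2 fold change of -0.47 (95% interval -1.03 to 0.09, edgeR adjusted p = 0.219). Experiment 2 gave 15.9, 20.4, 15.1 and 16.5 CPM for EV_RIP, 15.5, 16.7, 19.5 and 23.2 CPM in reporter-positive and 13.4, 29.9, 28.6 and 46.1 CPM in reporter-negative cells. Dbp overlapped with EV_RIP in both sorted groups, with log2 fold changes of 0.14 (edgeR adjusted p = 0.743) and 0.79 (SE 0.27). On the opposite strand, 18.01% of its exonic bases are shared with Sphk2. That gene had 46.5 to 53.7 CPM in EV_RIP, 53.1 to 68.0 in reporter-positive and 52.9 to 78.7 CPM in reporter-negative cells. In experiment 1 it had 43.3 to 49.0 CPM in EV and 50.6 to 61.2 CPM in shSmndc1. The part of Sphk2 in the Dbp values was not tested.

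Of the activators Arntl and Clock, Arntl was called in shSmndc1 alone and Clock in no comparison, and no test compared them with each other. Arntl (ENSMUSG00000055116, chromosome 7, 113207465 to 113314126, plus strand), a known target of repression by REV-ERB alpha, stood at 22.2, 24.6 and 20.7 CPM in the EV libraries and at 32.7, 27.3 and 44.3 CPM with the shRNA. The groups did not overlap, and Arntl rose by 0.63 on the log2 scale (SE 0.18, 95% interval 0.22 to 1.04, edgeR adjusted p = 0.0497), or 1.54-fold, in the same libraries in which Nr1d1 rose. This call sits at the threshold and was lost without any 1 of the 6 libraries (edgeR adjusted p between 0.0522 and 0.180, log2 fold changes of 0.41 to 0.77). Those fits called 0.967% to 18% of all genes. For Arntl, experiment 2 gave 25.6, 18.5, 25.0 and 31.0 CPM for EV_RIP, 29.6, 22.9, 25.6 and 24.6 CPM in reporter-negative and 38.8, 28.1, 31.2 and 24.0 CPM in reporter-positive cells. All 3 groups overlapped, and in reporter-positive cells the log2 fold change was 0.29 (95% interval -0.07 to 0.65, edgeR adjusted p = 0.242). Clock stood at 197, 155 and 149 CPM in the EV libraries and at 165, 167 and 90.8 CPM with the shRNA, and at 103 to 156 CPM in EV_RIP against 94.7 to 149 CPM in reporter-positive cells. Neither comparison passed (log2 fold changes -0.25 and -0.06, edgeR adjusted p = 0.490 and 0.818).

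Counted over the 10 genes, 2 (Nr1d1, Arntl) rose and none fell in shSmndc1 in edgeR, where 14.7% of 18202 genes were called (7.22% higher and 7.5% lower), and 2 of 10 is near that share. The groups did not overlap for 3 of the 10, against 39.5% of all genes. The members' median log2 fold change was 0.12, against 0.00 over all genes, with 6 positive and 4 negative. In reporter-positive cells 4 of 10 (Nr1d1, Ciart, Bhlhe41, Per1) rose and none fell, where 17.4% of 18897 genes were called (8.47% higher and 8.92% lower). The same 4 did not overlap with EV_RIP, against 23.4% of all genes, and the members' median was 0.23. In reporter-negative cells the same 4 genes were past the threshold, where 13.9% of genes were called (8.17% higher and 5.69% lower) and 14.4% did not overlap; this contrast chose the genes and nothing is read from the count. The 3 of them that did not overlap there were Nr1d1, Ciart and Bhlhe41.

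**Figure D2:**
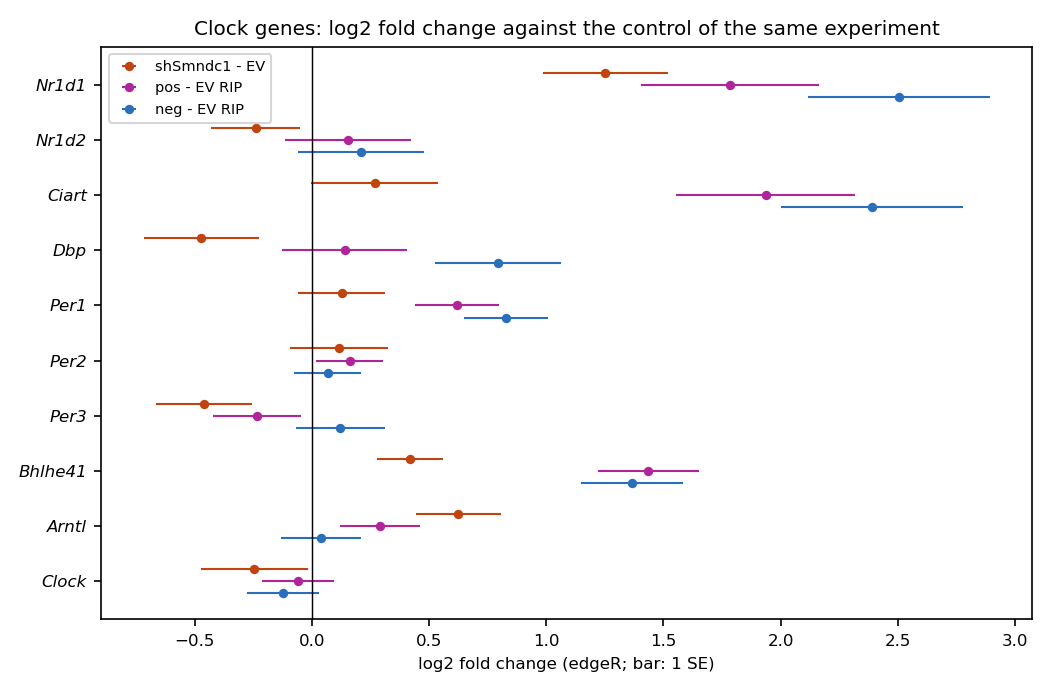
Log2 fold change (horizontal axis; point, edgeR estimate; bar, 1 SE either way) of each of the 10 clock genes in shSmndc1 against EV, and in reporter-positive (pos) and reporter-negative (neg) cells against EV RIP. Nr1d1 lies to the right of 0 in all 3, Ciart and Bhlhe41 reach 1.94 and 1.44 in pos against 0.27 and 0.42 in shSmndc1, and pos and neg share their control libraries.

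Reporter-positive and reporter-negative cells with the same replicate number deviated together over all genes (r of 0.201 to 0.697), and they are read here as pairs. Differently numbered libraries reached r = 0.371 (reporter-negative 2 with reporter-positive 4), above pair 3 (0.201), so that pair is less certain. In edgeR without a replicate block, no gene passed between reporter-positive and reporter-negative cells (0% of 18897), and 2314 genes, or 12.2%, had an unadjusted p under 0.05. DESeq2 called 315 genes, and the members are described. The groups did not overlap for 6.58% of all genes and for 0 of the 10 members. Nr1d1, Ciart, Dbp and Per1 were lower in reporter-positive cells in 3 of 4 pairs, with pair 1 the exception for each. For Nr1d1 the log2 ratios of positive to negative cells were 0.77, -0.92, -0.58 and -1.26 in pairs 1 to 4, and for Dbp 0.22, -0.84, -0.55 and -0.99. Reporter-negative replicate 1 had the lowest Smndc1 (23.9 CPM) and the lowest sum of immediate-early genes (604 CPM, against 1010, 1159 and 1237) of its group, and the part of either in the pair values was not tested. With the replicate number as a block in these 8 libraries alone, a fit chosen after seeing the data, 8.43% of 17994 genes were called by edgeR, and 1 member, Dbp, was past the threshold (log2 fold change -0.55, SE 0.16). Nr1d1 had -0.72 (SE 0.37) without and -0.51 (SE 0.22) with that block. The choice of genes known to be high in these reporter-negative libraries favours lower values in reporter-positive cells, so nothing is read from that count.

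Promoter sequences are shown for the 4 genes that were higher together in reporter-positive cells, since CLOCK and BMAL1 act through E-boxes there. RefSeq windows of 300 bases around the start, from GRCm38.p6, were matched for 9 of the 10 genes, with no entry for Per2. The bases upstream of annotated exons are printed in lower case with motifs in capitals: the E-box CACGTG, the variant of it that is written CACGTT (when read from the other strand this becomes AACGTG), and a core site of ROR elements, which is written AGGTCA (when read from the other strand this becomes TGACCT). Ciart, at chr3:95882252-95882478 on the minus strand, holds 3 E-boxes. Nr1d1, at chr11:98775378-98775627 on the minus strand, holds 1 CACGTT variant. Bhlhe41, at chr6:145865559-145865670 on the minus strand, holds 1 E-box, and Per1, at chr11:69098699-69098947 on the plus strand (the first of 2 starts), holds 1 E-box and 1 ROR core site.
Ciart: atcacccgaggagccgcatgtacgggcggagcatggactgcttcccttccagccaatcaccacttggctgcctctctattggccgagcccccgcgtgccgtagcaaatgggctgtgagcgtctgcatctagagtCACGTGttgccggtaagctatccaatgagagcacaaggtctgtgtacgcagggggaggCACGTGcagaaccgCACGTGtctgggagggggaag
Nr1d1: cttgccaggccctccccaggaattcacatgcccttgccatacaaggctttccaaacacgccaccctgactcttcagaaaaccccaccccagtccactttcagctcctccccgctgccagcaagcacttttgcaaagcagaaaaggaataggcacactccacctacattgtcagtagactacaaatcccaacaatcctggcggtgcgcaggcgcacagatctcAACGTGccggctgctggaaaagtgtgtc
Bhlhe41: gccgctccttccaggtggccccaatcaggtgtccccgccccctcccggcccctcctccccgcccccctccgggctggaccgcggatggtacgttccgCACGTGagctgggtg
Per1: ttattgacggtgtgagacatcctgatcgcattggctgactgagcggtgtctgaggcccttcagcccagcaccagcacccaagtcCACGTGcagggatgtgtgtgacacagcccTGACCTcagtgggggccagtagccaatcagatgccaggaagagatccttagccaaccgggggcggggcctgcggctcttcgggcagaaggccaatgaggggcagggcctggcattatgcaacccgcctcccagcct

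Over 32851 windows of 300 bases in the same table, 7.15% held at least 1 E-box on either strand and 0.0883% held at least 3, while 4.68% held the CACGTT variant and 16.3% the AGGTCA core. In the other members, Nr1d2 and 1 window each of Arntl and Clock held the AGGTCA core. Per3 held 2 copies of the D-box TTATGTAA, which 0.0213% of windows do, and Dbp held none of these letters in its window. A match is a description of letters and no measure of binding.

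The members differed in how they varied from library to library. As deviations from group means over all 18 libraries (log2 CPM), Nr1d1 correlated with Bhlhe41 at r = 0.93, with Dbp at 0.79, with Ciart at 0.78 and with Per1 at 0.67, but with Per2 at 0.01, Clock at -0.15 and Arntl at -0.27. Ciart and Per1 had r = 0.93, and Per1 also varied with Per2 (r = 0.66) and Per3 (0.63), which had r = 0.70 with each other. Nr1d2 varied with Clock (r = 0.77) and against Arntl (r = -0.65), and had r = 0.46 with Nr1d1. These values are descriptions, over libraries that also differ in depth and Rn7sk. Reporter-negative replicate 1 lay far below the rest of its group for Nr1d1 (120.3 against 424 to 658 CPM). It was also the lowest of that group for Ciart, Dbp, Per1 and Bhlhe41. The correlations without that library were not computed, so they may rest largely on it. Arntl and Nr1d1 had r = 0.95 as levels over the 6 libraries of experiment 1 and -0.07 over the 12 of experiment 2.

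**Figure D3:**
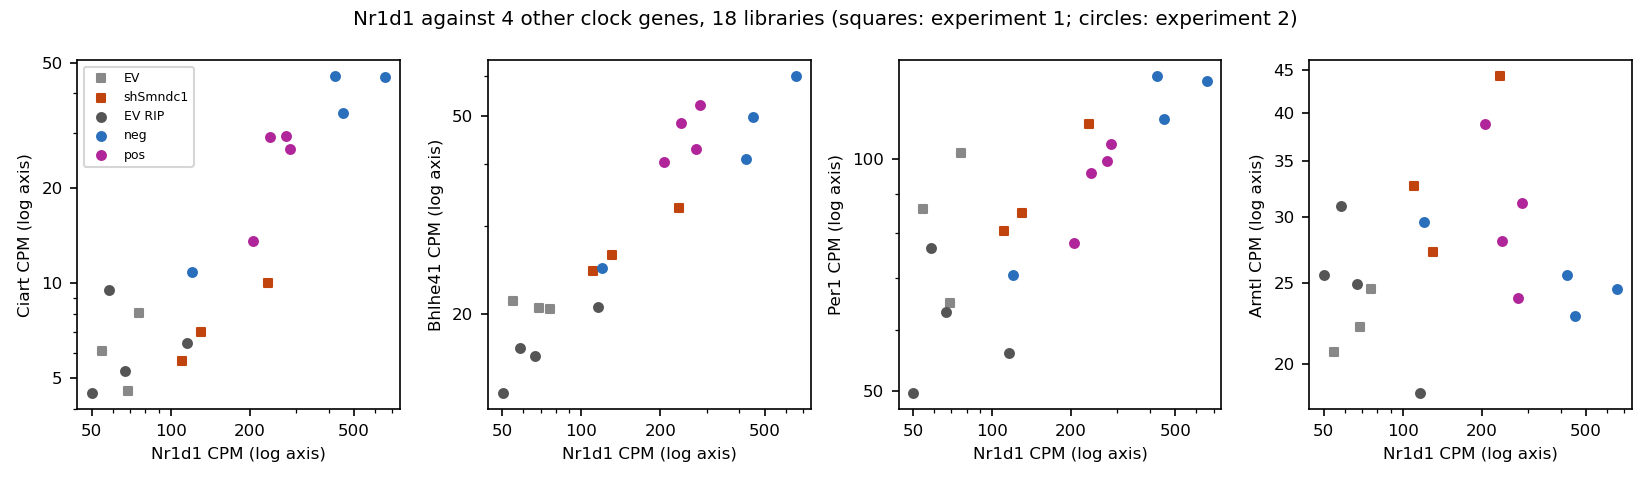
Nr1d1 in CPM (horizontal, log axis) against Ciart, Bhlhe41, Per1 and Arntl in CPM (vertical, log axes) in the 18 libraries; squares are experiment 1 and circles experiment 2. Bhlhe41 rises with Nr1d1 in both experiments, Ciart stays at or below 10.01 CPM in experiment 1, and Arntl is highest in shSmndc1 replicate 3, at 44.3 CPM.

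Over the 12 libraries of experiment 2, 10296 genes with a mean of at least 5 CPM were ranked by the correlation of their log2 CPM with Nr1d1. The 5 closest were Snhg16 (r = 0.993), a snoRNA host transcript, the nucleoporin gene Nup214 (0.984), the golgin gene Blzf1 (0.982), the phosphatase gene Ptpn23 (0.982) and Klf10 (0.981), a zinc finger factor on the list of clock outputs. Over the 6 libraries of experiment 1, which did not enter the ranking, their r was 0.97, 0.86, 0.62, 0.89 and 0.93. Of the other members, Bhlhe41 ranked 55 (r = 0.953), Ciart 95 (0.941) and Per1 257 (0.903). The rest ranked lower: Dbp 884 (0.788), Nr1d2 2231 (0.512), Per2 3510 (0.202), Per3 4112 (0.052), Arntl 4557 (-0.067) and Clock 4822 (-0.127). The 12 libraries share the group differences, so that a gene higher in both sorted groups will score high. Snhg16 had 28.6 ± 8.79 CPM in EV_RIP, 61.8 ± 10.4 CPM in reporter-positive and 86.3 ± 33.2 CPM in reporter-negative cells (SD, n = 4). It was chosen by its likeness to Nr1d1 over these libraries, so nothing is read from the group order that both share.

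Other measures of the libraries also differed between groups, and their part in the Nr1d1 values was not tested. The summed level of 21 immediate-early genes was 395 to 593 CPM in EV_RIP, 489 to 968 CPM in reporter-positive and 604 to 1237 CPM in reporter-negative cells, and 630 to 915 CPM in EV against 821 to 1268 CPM in shSmndc1. Of 21 tested, 8 were higher and 1 lower in reporter-positive cells in edgeR, where 17.4% of all genes were called, and 3 of 20 were higher in shSmndc1, near the 14.7% of all genes called there. Reporter-positive replicate 1 had 206 CPM of Nr1d1 and an immediate-early sum of 489 CPM. Rn7sk was 2.44 to 4.68 CPM in reporter-positive cells and 5.24 to 14.2 CPM in EV_RIP. The summed level of the heat shock genes was 10410, 12154 and 10471 CPM in reporter-negative replicates 2 to 4, the 3 libraries with the highest Nr1d1, against 6993 to 8824 CPM in the rest of experiment 2. In shSmndc1 replicate 3, the library of experiment 1 with the highest Nr1d1, that sum was 4319 CPM, against 7597 to 8403 CPM in the other 5.

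**Figure D4:**
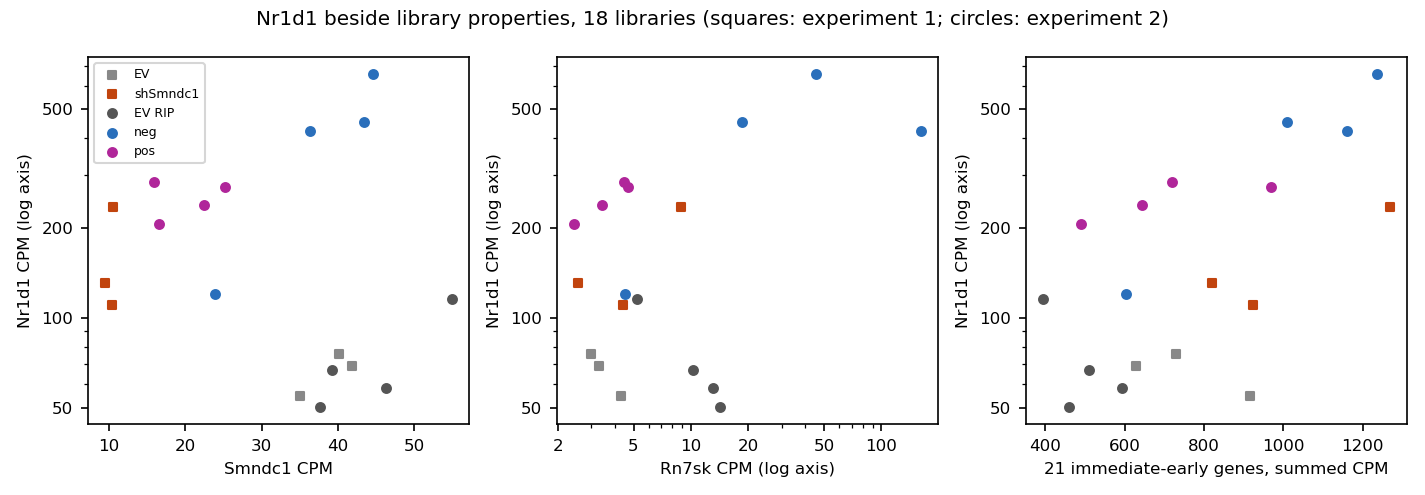
Nr1d1 in CPM (vertical, log axes) against Smndc1 in CPM, Rn7sk in CPM (log axis) and the summed CPM of 21 immediate-early genes in the 18 libraries; squares are experiment 1 and circles experiment 2. The 3 neg libraries with the highest Nr1d1 (424 to 658 CPM) have Smndc1 of 36.3 to 44.6 CPM and the highest Rn7sk, while pos libraries join high Nr1d1 with Smndc1 of 15.97 to 25.2 CPM and Rn7sk of at most 4.68 CPM.

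Beyond the 10 members, 22 genes of the core loop and its regulators and 11 clock outputs formed lists for context, of which 20 and 10 passed the filter on low counts (Npas2, Fbxl21 and Lonrf3 did not). In shSmndc1, 1 of 20 core genes rose and none fell, and 2 of 10 outputs rose and 1 fell, where 14.7% of all genes were called (7.22% higher and 7.5% lower); 4 of 30 over both lists is near that share. Sirt1, a deacetylase that acts on BMAL1 and PER2, rose from 25.6, 26.0 and 25.9 CPM to 37.1, 42.5 and 48.8 CPM (log2 fold change 0.73, SE 0.13, edgeR adjusted p = 0.0128). Noct, the rhythmic nocturnin gene (0.96, edgeR adjusted p = 0.0166), and the cell cycle kinase Wee1 (0.60, 0.0206) rose, and Klf9, a factor induced by glucocorticoids, fell (-0.97, edgeR adjusted p = 0.00716). Without EV replicate 2 or EV replicate 3, none of the 3 rises was called, and Wee1 was also not called without shSmndc1 replicate 2 (edgeR adjusted p = 0.0808). Those fits called 2.95%, 0.967% and 3.39% of all genes. The list medians were -0.07 for core genes and -0.15 for outputs.

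In reporter-positive cells 1 of 20 core genes rose and 2 fell, and 2 of 10 outputs rose and 1 fell, where 17.4% of all genes were called (8.47% higher and 8.92% lower); the core list lies near that share. Sirt1 rose from 20.6, 29.2, 28.2 and 31.1 CPM to 59.4, 54.6, 39.2 and 43.3 CPM (log2 fold change 0.85, edgeR adjusted p = 0.00549), and Noct rose by 1.00 (edgeR adjusted p = 0.00428). Klf9 fell from 23.3, 22.7, 30.0 and 30.9 CPM to 16.9, 15.4, 14.3 and 18.1 CPM (-0.72, edgeR adjusted p = 0.00732). Sirt1, Noct and Klf9 passed in the same direction in both experiments, which share no library. The share of all genes that did so was not counted, and nothing is read from these 3. Klf10 rose (1.09, edgeR adjusted p = 0.0134), while Hlf, a D-box factor of the Dbp family (-0.74, 0.0218), and Nono, a partner of the PER proteins (-0.39, 0.0171), fell. The Hlf call was lost without EV_RIP replicate 4 or reporter-positive replicate 2, 3 or 4 (largest edgeR adjusted p = 0.0676), and the Nono call without reporter-positive replicate 2 (edgeR adjusted p = 0.0646). Those fits called 6.46% to 12.1% of all genes. Hlf stood at -1.06 in shSmndc1 without passing (edgeR adjusted p = 0.0561).

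The reporter-negative values of these lists come from the contrast that chose the 10 genes and are a description too. There 3 of 20 core genes were past the threshold as higher and 1 as lower, and 1 of 10 outputs as higher, where 13.9% of all genes were called (8.17% higher and 5.69% lower), and nothing is read from the count. These were Sirt1 (log2 fold change 0.66), Zfhx3 (1.13), Bhlhe40, the paralog of Bhlhe41 (0.65), Klf10 (1.51) and, lower, Nono (-0.32). None of these 5 was past the threshold without reporter-negative replicates 3 and 4, where edgeR called 4 of 19869 genes. Bhlhe40 had a log2 fold change of 0.50 in reporter-positive cells (edgeR adjusted p = 0.0672) and -0.49 in shSmndc1 (edgeR adjusted p = 0.144). The cryptochromes Cry1 and Cry2, which close the main loop with the PER proteins, passed in no comparison, nor did Rora and Rorb, whose receptors bind the sites used by REV-ERB alpha. Between reporter-positive and reporter-negative cells no gene of either list passed in the fit without pairs. The smallest edgeR adjusted p there were 0.144 for Klf9 (log2 fold change -0.60) and 0.171 for Noct (0.69). With the replicate number as a block in the sorted libraries alone, a fit chosen after seeing the data, 2 were called higher and 2 lower. That fit called 8.43% of 17994 genes.

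**Figure D5:**
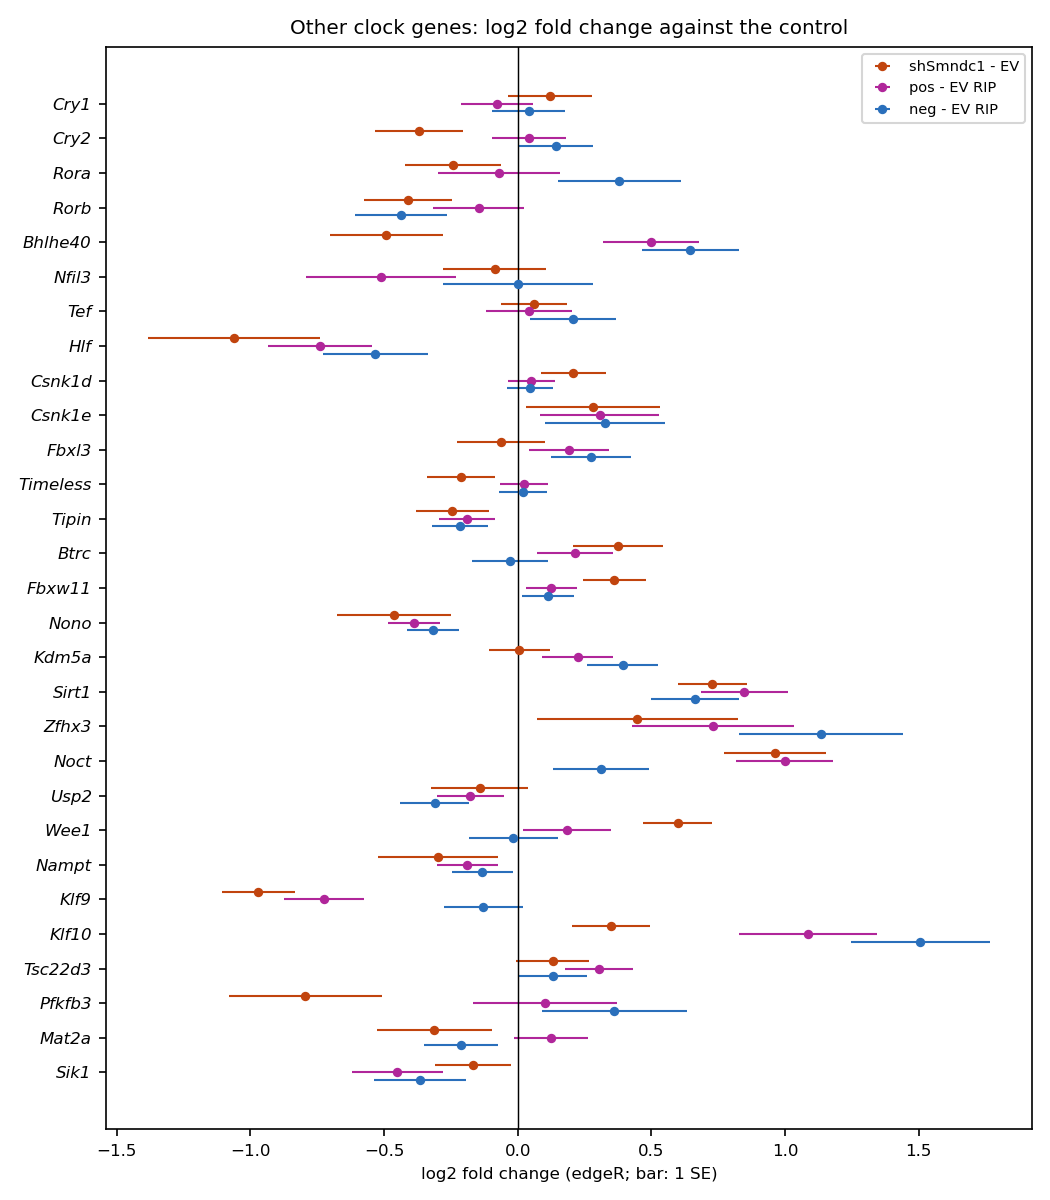
Log2 fold change (horizontal axis; point, edgeR estimate; bar, 1 SE either way) of 29 tested genes of the core loop and of clock outputs that are not among the 10, in shSmndc1 against EV and in reporter-positive (pos) and reporter-negative (neg) cells against EV RIP. Sirt1 lies right of 0 in all 3 comparisons (0.73, 0.85 and 0.66), Klf9 left of 0 at -0.97 in shSmndc1 and -0.72 in pos, and Cry1, Cry2, Rora and Rorb lie between -0.44 and 0.38.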

How the data were processed

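RNA was measured in 18 libraries of alphaTC1 cells. The authors deposited raw counts per Ensembl gene and FPKM values for each experiment, and the counts are whole numbers without scaling. Libraries were made with a stranded mRNA kit, per the labels' protocols. STAR 2.7.5a, Picard 2.19.2 and DESeq2 1.30.0 with GRCm38 are named, per the submitters' processing notes; for the counting program and its use of strand, the sources used here give nothing. Deposited FPKM was used to compare levels between genes. Positions of the 10 genes were identical in GENCODE M21.

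Counts were tested in R 4.3.3 by edgeR 4.0.16, quasi-likelihood F test (filterByExpr with a minimum count of 10, TMM, Benjamini-Hochberg over all genes, threshold 0.05). Experiment 1 (6 libraries) and experiment 2 (12) were fitted separately, and the difference between the effects of shSmndc1 and reporter-positive cells in all 18. CPM values use TMM-scaled library sizes, and log2 CPM used a prior count of 0.5. Intervals are at 95%. Nothing in the labels says that replicates came from separate cultures; p-values then measure only the spread of these libraries, possibly a technical one, and no 2 replicates agreed within sampling noise.

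The 10 genes and the lists were chosen with earlier results of these data known. Named genes are the 10, all genes of 2 clock lists past the threshold (at most 8 per comparison), and the 5 most correlated with Nr1d1 in experiment 2. The counts over the lists include 1 gene that is not reported here. Same-numbered libraries correlated in their deviations at 0.697, 0.431, 0.201 and 0.418 between reporter-negative and reporter-positive cells. They were read as pairs, with pair 3 less certain. The other groups were not read as pairs. Yet EV_RIP replicate 2 reached 0.571 with reporter-negative and 0.491 with reporter-positive replicate 2, while r was negative for EV_RIP replicates 3 and 4 with both. On simulated counts for shSmndc1 against EV (17920 genes), 54.55% of genes changed by a log2 of 1 and 90.32% of those changed by 2 were recovered; for reporter-positive cells against EV_RIP (18547 genes) the shares were 65.31% and 89%. Alternatives were DESeq2 1.42.0, RLE scaling, no filter, the groups compared alone, a replicate block and leaving out libraries.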

Additional observations from a re-analysis of the deposited data

Results flagged for a closer look

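Per3 in reporter-negative replicate 3 stood at 22.7 CPM, while the other 3 libraries of that group had 13.7 to 14.9 CPM. The gap took 0.864 of the range of the group, above the limit of 0.829 for 4 samples. It was the 1 outlier among 57 groups of 4 libraries looked at, where chance gives about 5%. That library is the shallowest, at 8084574 counts.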

How the results depend on the processing

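The 4 members called higher in reporter-positive cells were called under each alternative that kept all libraries (DESeq2, RLE scaling, no filter, 8 libraries alone, replicate block), and 3 or 4 without any 1 library. Of these members, Per1 was the one not called without some libraries. Sirt1, Noct, Klf9 and Klf10 in reporter-positive cells and Klf9 in shSmndc1 were called under every alternative. The remaining calls were each lost under some alternative, and the causes were not tested. Without 1 library, the share of all genes called was 0.967% to 18% in shSmndc1, against 14.7%. It was 6.46% to 19% in reporter-positive cells, against 17.4%, and 0.821% to 29.7% in reporter-negative cells, against 13.9%. In shSmndc1 the 2 members called higher became 1 with RLE scaling, 1 with the replicate block (Arntl lost, 0.60, edgeR adjusted p = 0.0572) and 0 to 1 without 1 library, and those lower 0 to 1 (Per3 without shSmndc1 replicate 3). Of the other clock genes there, the 3 higher became 0 to 4 and the 1 lower 1 to 3 without 1 library, the latter 3 with DESeq2, 4 without the filter and 3 with the block. In reporter-positive cells, the 3 higher became 6 with the block and 5 in the libraries of the groups compared, and the 3 lower 1 to 4 without 1 library. In reporter-negative cells, the 4 other clock genes higher became 1 to 6 and the 1 lower 0 to 3 without 1 library; the latter was 3 without the filter, 2 with the block and 0 in the groups compared alone. Without reporter-negative replicates 3 and 4, counts were 0 for members higher, 0 for other genes higher and 0 lower, and 0.0201% of all genes were called. Between positive and negative cells, members lower went from 0 to 1 with the block in 8 libraries (chosen after seeing the data) and 0 to 2 without 1 library (Nr1d1 -1.02 and Dbp -0.89 without reporter-negative replicate 1). Other clock genes higher became 1 with DESeq2, 1 without the filter, 2 with that block and 0 to 1 without 1 library, and those lower 1 with DESeq2, 2 with that block and 0 to 1 without 1 library.

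Same-numbered libraries of EV and shSmndc1 had r of -0.03, -0.02 and 0.30. For EV_RIP replicates 1 to 4, r was 0.28, 0.57, -0.22 and -0.32 with same-numbered reporter-negative libraries. With reporter-positive libraries it was 0.24, 0.49, -0.04 and -0.06. Only replicates 1 and 2 of EV_RIP thus deviated together with both sorted groups, and a shared origin was not tested. The replicate block called 15.5% of genes in shSmndc1 and 26.9% in reporter-positive cells, against 14.7% and 17.4%.

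Members that changed sign were uncalled in each case. Without 1 library, log2 values ranged from -0.041 to 0.28 (Per1) and -0.092 to 0.40 (Per2) in shSmndc1, and from -0.0014 to 0.32 (Nr1d2) and -0.14 to 0.048 (Clock) in reporter-positive cells. In reporter-negative cells the ranges were -0.020 to 0.22 (Per2), -0.071 to 0.24 (Per3) and -0.082 to 0.15 (Arntl, -0.025 without the filter), and without replicates 3 and 4 Per2 had -0.025 and Per3 -0.047. For positive against negative cells they were -0.21 to 0.090 (Nr1d2), -0.12 to 0.26 (Bhlhe41) and -0.016 to 0.18 (Clock), and without those replicates 0.10 (Nr1d2), 0.11 (Ciart), 0.042 (Per1) and -0.0067 (Clock). For the difference between experiments they were -0.23 to 0.25 (Per2) and -0.32 to 0.075 (Clock).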
